A study of Mus musculus with 13 samples.

Results

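The 9 genes described here encode the protein core of perineuronal nets: Acan, Bcan, Ncan, Vcan, Hapln1, Hapln2, Hapln4, Tnr and Tnc. They were chosen by name, and each matched 1 of the 48709 gene rows of the count tables. Read counts came from spinal motoneurons that had been cut out of stained lumbar cord sections by laser, 1 library per mouse, with RNA pooled from about 500 cells. All 13 mice carried the SOD1-G93A transgene, a mutant human superoxide dismutase used as a model of amyotrophic lateral sclerosis, and all were 65 days old; no mouse without the transgene is among the groups. The AAV-miR SOD1 group (4 libraries, replicates 1 to 4) had received, into the cerebral ventricles on postnatal day 2, a virus that expresses an artificial microRNA against human SOD1 in astrocytes. The AAV-miR ctrl group (5 libraries, replicates 1, 3, 4, 5 and 6) had received AAV-miR ctrl in the same way, and the non-injected littermates (4 libraries, replicates 2, 3, 5 and 6) had no injection. The microRNA was thus directed to a cell type other than the one sampled.

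A perineuronal net is a lattice of extracellular matrix around the soma and proximal dendrites of certain neurons, among them many spinal motoneurons, and it is known for restraining plasticity. Hyaluronan made at the cell surface is its backbone. The lecticans (aggrecan, brevican, neurocan and versican, from Acan, Bcan, Ncan and Vcan) are chondroitin sulfate proteoglycans that grip hyaluronan at one end, link proteins of the Hapln family lock that grip, and tenascin-R, from Tnr, ties the other ends of the lecticans together. Tenascin-C, from Tnc, is the related protein of developing and injured tissue, and is also made in bone and tendon.

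The members differed from each other in these libraries. Hapln4, Tnr and Bcan had lower mean levels in the AAV-miR SOD1 group than in each control group, by 0.63 to 1.06 on the log2 scale, and Ncan was close to them. Acan, Vcan and Hapln2 varied within groups by as much as between them. Hapln1 was set by 1 library. Tnc alone had log2 fold changes above 0 against each control group, 0.11 ± 0.46 against AAV-miR ctrl and 0.77 ± 0.49 against non-injected. No member passed the threshold of 0.05 for an adjusted p in any comparison.

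Facts of the libraries bear on all of these values. The tables held 13897189 to 37414222 counts assigned to genes per library. Of each library's total, 38.4 to 44.0% was assigned to genes in the AAV-miR SOD1 group. The assigned share was 41.5 to 50.7% in the AAV-miR ctrl group and 42.2 to 53.0% in the non-injected group. The share aligned to more than 1 place was 51.1 to 56.8%, 44.6 to 53.8% and 42.3 to 52.8% in the same order of groups. The part of these shares in the levels was not tested. The 4 libraries numbered 5 and 6 were all controls and were the deepest of the series, so their depth and their group cannot be told apart. In 2 tables, those of the third replicate of the AAV-miR ctrl and of the non-injected group, the column header contradicted the label, and the label was followed. All 8 motoneuron markers were detected in every library, with summed levels of 3730 to 6168 CPM (counts per megacount of scaled library size) in the AAV-miR SOD1 group, 5326 to 11610 in the AAV-miR ctrl group and 5398 to 12832 in the non-injected group. Other cells were present as well: the 7 bone and fibroblast markers summed to 7750 to 34077 CPM and the 6 erythroid markers to 3108 to 43019 CPM. Per the labels' protocols the cord was frozen and cut together with its vertebrae. Mouse Sod1, which is not the target of the microRNA, ranged from 168 to 273 CPM in the AAV-miR SOD1 group, 220 to 352 in the AAV-miR ctrl group and 232 to 472 in the non-injected group; the human transgene has no row of its own, so the labels could not be checked by it.

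Upstream sequences are shown for 2 of the genes with lower means in the AAV-miR SOD1 group, Bcan and Tnr, and for Acan, the member most used to stain nets. Over the 13 libraries the Pearson r of log2 CPM was 0.77 for Bcan with Tnr. It was 0.58 for Acan with Bcan and 0.52 for Acan with Tnr. Of the 9 members, 8 had an entry in the RefSeq promoter table (GRCm38.p6). Each line gives the 250 bases before the RefSeq start, which for Bcan and Acan lies upstream of the GENCODE gene start given further on, 5′ to 3′ on the gene's strand, with capitals for matches to any of 3 motifs searched on both strands: a SOX core (ACAAAG or ACAATG), a GC box (GGGCGG) and a TATA box (TATAAA). The Bcan window is chr3:88000357-88000606 on the minus strand, the Tnr window chr1:159523519-159523768 on the plus strand and the Acan window chr7:79052976-79053225 on the plus strand.
Bcan: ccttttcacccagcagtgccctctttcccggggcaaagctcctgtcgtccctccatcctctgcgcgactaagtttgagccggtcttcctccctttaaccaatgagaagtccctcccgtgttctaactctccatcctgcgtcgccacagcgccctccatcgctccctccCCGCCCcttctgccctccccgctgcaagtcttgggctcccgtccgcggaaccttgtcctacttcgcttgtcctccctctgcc
Tnr: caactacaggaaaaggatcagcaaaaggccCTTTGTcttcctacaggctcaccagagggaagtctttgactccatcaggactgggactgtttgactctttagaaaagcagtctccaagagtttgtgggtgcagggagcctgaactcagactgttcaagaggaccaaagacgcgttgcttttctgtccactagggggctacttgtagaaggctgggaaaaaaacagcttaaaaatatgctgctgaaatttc
Acan: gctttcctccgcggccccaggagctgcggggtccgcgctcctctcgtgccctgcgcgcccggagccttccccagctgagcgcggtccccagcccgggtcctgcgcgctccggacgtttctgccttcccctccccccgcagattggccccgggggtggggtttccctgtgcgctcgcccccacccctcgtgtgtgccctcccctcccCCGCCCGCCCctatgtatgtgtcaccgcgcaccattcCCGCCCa
The Acan window was 74.4% G and C and held 3 GC box matches, 2 of which overlap and show as 1 stretch of capitals. The Bcan window was 62% G and C with 1 GC box match, and the Tnr window 46.8% with 1 SOX core match and no GC box. Over all 32536 promoter windows of this length, 33.0% held a GC box, 25.0% a SOX core and 12.3% a TATA box, so these matches are common ones. None of the 3 motifs was shared by Bcan and Tnr, and a match describes letters only.

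To set the genes beside each other, CPM were divided by each gene's exon length in kilobases (GENCODE M21, GRCm38). On this length-scaled scale Tnc had the highest median level, 21.6 CPM per kb, and Hapln4 the next, 17.9 CPM per kb. Bcan followed at 7.52, Acan at 1.96, Hapln2 at 1.52, Ncan at 0.833, Hapln1 at 0.594, Vcan at 0.475 and Tnr at 0.369 CPM per kb. Hapln4 lay above Bcan in 13 of 13 libraries and Bcan above Acan in 13 of 13, so those steps exceeded the spread. Acan lay above Hapln2 in 11 of 13 libraries. The other neighbours in the order changed places between libraries (Tnc above Hapln4 in 8, Hapln2 above Ncan in 8, Ncan above Hapln1 in 9, Hapln1 above Vcan in 7 and Vcan above Tnr in 9 of 13). Hapln4 was thus the most abundant link protein transcript and Bcan the most abundant lectican transcript, by their medians.

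**Figure D1:**
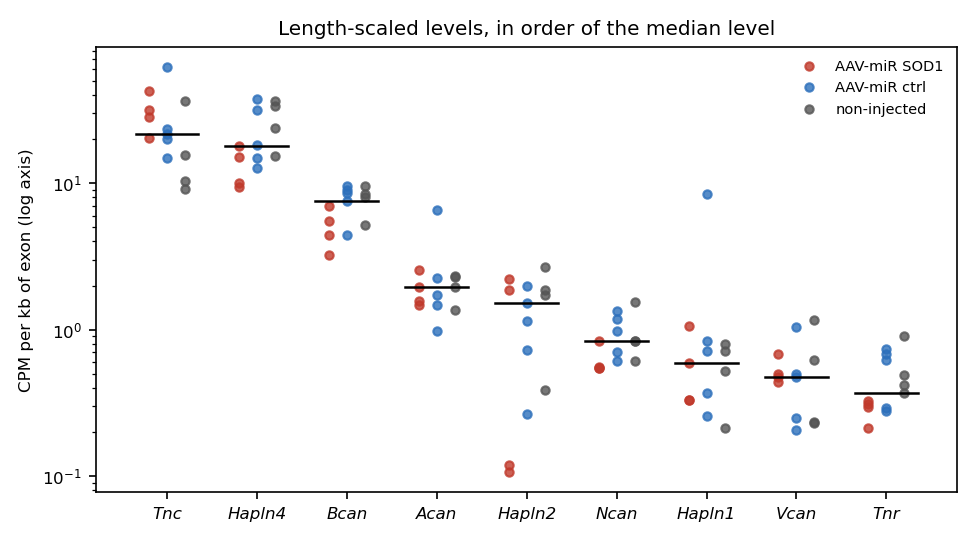
Levels of the 9 genes in CPM per kilobase of exon (log axis), 1 point per library coloured by group, with the median of all 13 libraries as a bar. By their medians Tnc, Hapln4 and Bcan lie above the other 6, and single points stand far off for Hapln1 and Hapln2.

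Among the lecticans, Bcan, on chromosome 3 (87987531 to 88000230, minus strand), encodes brevican, a lectican confined to nervous tissue. In the AAV-miR SOD1 group it was at 22.2, 28.1, 13.1 and 18.02 CPM in replicates 1 to 4. In the AAV-miR ctrl group it was at 30.6, 18.02, 34.8, 38.9 and 36.6 CPM in replicates 1, 3, 4, 5 and 6, and in the non-injected group at 20.99, 38.6, 34.1 and 32.8 CPM in replicates 2, 3, 5 and 6. All but 1 library of each control group lay above every AAV-miR SOD1 library, and the groups overlapped through replicate 3 of AAV-miR ctrl and replicate 2 of the non-injected group. On the log2 scale Bcan differed by −0.64 ± 0.28 (SE) from AAV-miR ctrl (edgeR quasi-likelihood test, adjusted p = 0.317) and by −0.63 ± 0.29 from the non-injected group (adjusted p = 0.229). Without AAV-miR SOD1 replicate 3 these were −0.42 and −0.40.

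Ncan, on chromosome 8 (70093085 to 70120873, minus strand), encodes neurocan, a lectican that is most abundant in the developing brain. It was at 3.96, 6.00, 3.93 and 3.98 CPM in AAV-miR SOD1 replicates 1 to 4. The AAV-miR ctrl libraries had 4.37, 5.06, 8.47, 9.62 and 7.01 CPM and the non-injected libraries 4.43, 11.2, 6.02 and 5.99 CPM, in the order of their numbers. Of the AAV-miR SOD1 libraries 3 lay below all controls, and replicate 2 lay among them. The log2 fold change was −0.63 ± 0.33 against AAV-miR ctrl (edgeR, adjusted p = 0.401) and −0.62 ± 0.35 against the non-injected group (adjusted p = 0.326), and neither passed an unadjusted p of 0.05. The second was −0.30 without non-injected replicate 3.

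Acan, on chromosome 7 (79053483 to 79115099, plus strand), encodes aggrecan, which is both the main proteoglycan of mature nets and the main one of cartilage. Its levels were 10.95, 18.9, 11.7 and 14.7 CPM in the AAV-miR SOD1 group, 12.9, 7.28, 10.9, 48.5 and 16.7 CPM in the AAV-miR ctrl group and 10.1, 17.5, 17.1 and 14.6 CPM in the non-injected group. Apart from AAV-miR ctrl replicate 5 the groups covered the same range. The log2 fold change against AAV-miR ctrl was −0.46 ± 0.45 (edgeR, adjusted p = 0.665) and turned to 0.23 without that library, while against the non-injected group it was −0.08 ± 0.47 (adjusted p = 0.942).

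Vcan, on chromosome 13 (89655312 to 89742509, minus strand), encodes versican, a lectican of many connective tissues as well as of brain. It was at 7.17, 6.34, 6.87 and 9.92 CPM in the AAV-miR SOD1 group, 15.1, 7.18, 6.82, 2.997 and 3.59 CPM in the AAV-miR ctrl group and 3.37, 3.36, 8.94 and 16.7 CPM in the non-injected group. The AAV-miR SOD1 libraries were close to each other and lay inside the range of both control groups. The log2 fold changes were 0.09 ± 0.53 against AAV-miR ctrl and −0.10 ± 0.55 against the non-injected group (edgeR, adjusted p = 0.957 and 0.936).

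**Figure D2:**
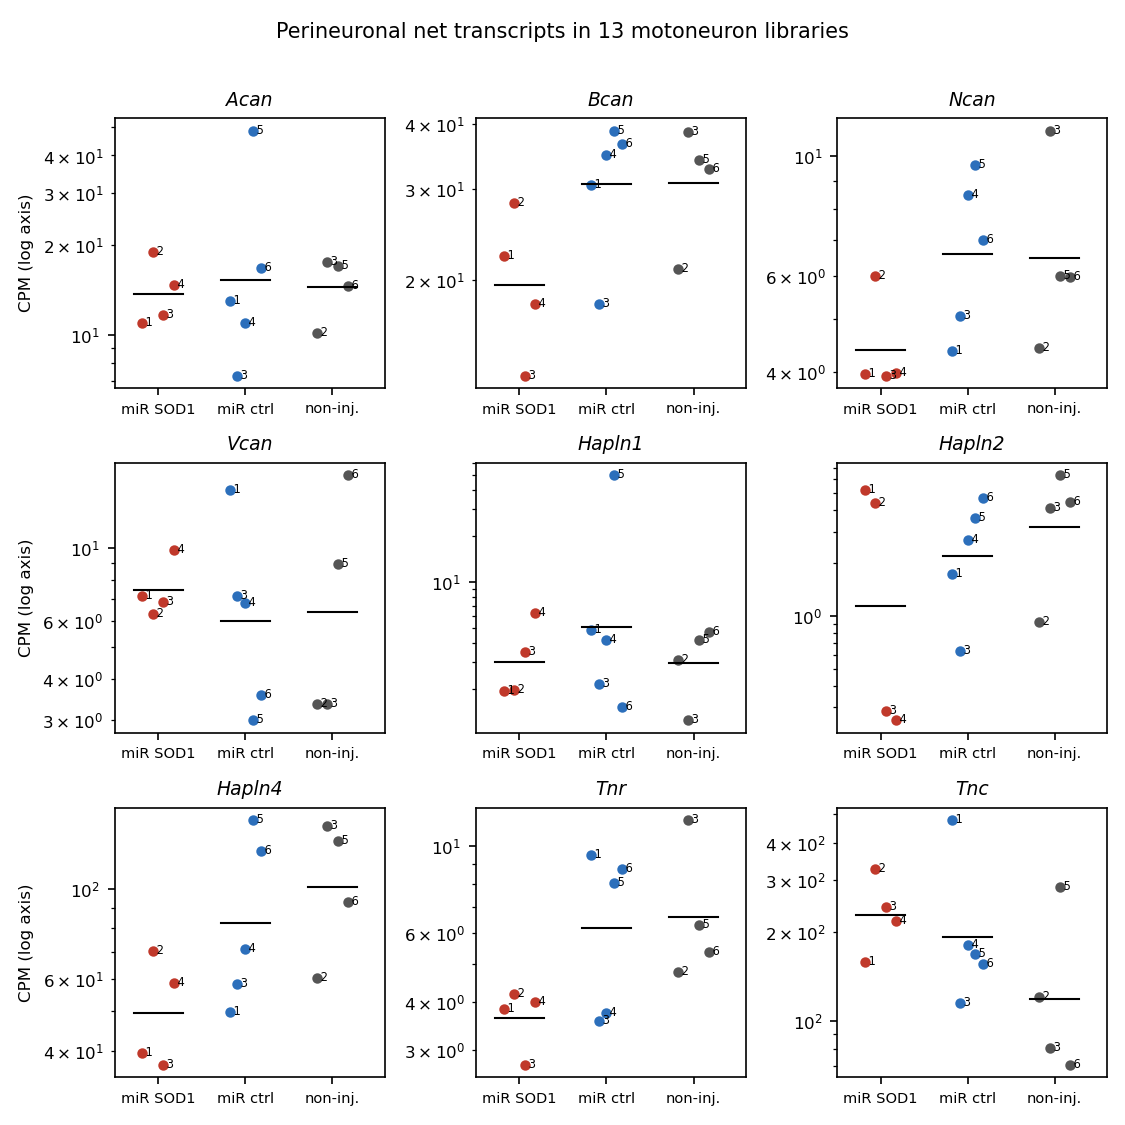
CPM (log axis) of each gene in the 3 groups, 1 point per library with its replicate number; bars are the geometric means of the groups. Hapln1 and Acan have 1 high point, AAV-miR ctrl replicate 5, and Hapln2 has 2 low points in the AAV-miR SOD1 group.

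Of the link proteins, Hapln4, on chromosome 8 (70083457 to 70090862, plus strand), encodes a brain link protein that pairs with brevican around neurons of the brainstem and cerebellum. It was at 39.4, 70.2, 36.8 and 58.7 CPM in AAV-miR SOD1 replicates 1 to 4. The AAV-miR ctrl libraries had 49.8, 58.3, 71.2, 148 and 124.1 CPM, and the non-injected libraries 60.3, 143, 131.1 and 92.8 CPM. The 6 highest values were in controls, and AAV-miR SOD1 replicates 2 and 4 lay within the range of the lower controls. The log2 fold change was −0.82 ± 0.36 against AAV-miR ctrl (edgeR, adjusted p = 0.321) and −1.06 ± 0.38 against the non-injected group (adjusted p = 0.152). Among libraries numbered 1 to 4 alone, the difference from AAV-miR ctrl was −0.20 (adjusted p = 0.926) and that from the non-injected group −0.96 (adjusted p = 0.299).

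Hapln1, on chromosome 13 (89539796 to 89611652, plus strand), encodes the link protein of both cartilage and nets. It was at 1.96, 1.97, 3.51 and 6.26 CPM in the AAV-miR SOD1 group and at 3.09, 1.25, 4.22 and 4.71 CPM in the non-injected group. In the AAV-miR ctrl group it was at 4.90, 2.17, 4.20, 49.95 and 1.52 CPM. The library AAV-miR ctrl replicate 5 held 1900 Hapln1 counts, and every other library 169 or fewer. The log2 fold change against AAV-miR ctrl, −1.89 ± 0.92 (edgeR, adjusted p = 0.365), became 0.10 without that library, and that of AAV-miR ctrl against non-injected, 1.92 ± 0.92 (adjusted p = 1.00), became −0.06.

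The same library stood apart in cartilage markers. Its 9 listed markers summed to 2990 CPM against 74.5 to 572 CPM in the other 12 libraries. Col2a1, the main collagen of cartilage, was at 1235 CPM there and at 2.11 to 80.6 CPM elsewhere. Chad, chondroadherin, was at 884 CPM there and at most 293 CPM elsewhere, and Matn3, a cartilage matrilin, was at 42.2 CPM there and at most 2.40 CPM elsewhere. Matn1, another matrilin, was at 0 in at least 1 library of every group and did not pass the filter on low counts. How far cartilage RNA contributed to Acan and Hapln1 in that library was not tested.

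Hapln2, on chromosome 3 (88021750 to 88027583, minus strand), encodes a link protein of the nodes of Ranvier in white matter. It was at 5.25, 4.42, 0.284 and 0.253 CPM in AAV-miR SOD1 replicates 1 to 4, which is 118, 92, 6 and 4 counts. The AAV-miR ctrl libraries had 1.72, 0.626, 2.70, 3.602 and 4.71 CPM and the non-injected libraries 0.923, 4.10, 6.34 and 4.44 CPM. The AAV-miR SOD1 group thus held both the 2 lowest libraries of the series and 2 of the higher ones. The log2 fold changes were −0.06 ± 0.83 against AAV-miR ctrl and −0.63 ± 0.88 against the non-injected group (edgeR, adjusted p = 0.981 and 0.723).

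Of the tenascins, Tnr, on chromosome 1 (159523769 to 159931729, plus strand), encodes the tenascin that crosslinks lecticans in mature nets. It was the least abundant member per length and was at 3.83, 4.18, 2.75 and 3.98 CPM in the AAV-miR SOD1 group. The AAV-miR ctrl libraries had 9.50, 3.57, 3.75, 8.04 and 8.77 CPM, and the non-injected libraries 4.75, 11.7, 6.27 and 5.37 CPM. All 4 AAV-miR SOD1 libraries lay below all 4 non-injected ones, as was the case in one direction or the other for 11.7% of genes tested, and 2 AAV-miR ctrl libraries lay inside the AAV-miR SOD1 range. The log2 fold change was −0.87 ± 0.38 against AAV-miR ctrl (edgeR, adjusted p = 0.320) and −0.93 ± 0.40 against the non-injected group (adjusted p = 0.206), the second being −0.57 without non-injected replicate 3. Of the Tnr exons, 3.44% overlap an antisense gene, Gm38039, and the strand setting of the counting is not given in the sources used here.

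Tnc, on chromosome 4 (63959785 to 64047015, minus strand), had 159, 327, 244 and 218 CPM in the AAV-miR SOD1 group. The AAV-miR ctrl libraries had 479, 115, 181, 168 and 156 CPM, and the non-injected libraries 120.1, 80.6, 284 and 70.7 CPM. Non-injected replicate 5 was the one library of its group that reached the AAV-miR SOD1 range. The log2 fold changes were 0.11 ± 0.46 against AAV-miR ctrl and 0.77 ± 0.49 against the non-injected group (edgeR, adjusted p = 0.940 and 0.387), and the second was 1.42 without non-injected replicate 5 (adjusted p = 0.206). Of the Tnc exons, 2.26% overlap an antisense gene, 8030451A03Rik.

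Counted together, 0 of 9 members had an adjusted p under 0.05 between AAV-miR SOD1 and AAV-miR ctrl by edgeR, beside 0% of the 17403 genes tested. At an unadjusted p under 0.05, 3 of 9 were lower (Bcan, Hapln4 and Tnr), beside 8.54% of genes, and 0 were higher, beside 5.99%. The median log2 fold change of the 9 was −0.63, against −0.04 over all genes. The lower calls came to 0 without AAV-miR SOD1 replicate 3 or AAV-miR ctrl replicate 5, to 1 without replicate 1 of AAV-miR SOD1, 6 of AAV-miR ctrl or 5 of the non-injected group, and to 0 among libraries numbered 1 to 4. With the replicate number as a block in the model they also came to 0. Over all genes, lower calls fell as well, from 1486 of 17403. They numbered 989 of 17824 without AAV-miR SOD1 replicate 3 and 911 of 17241 without AAV-miR ctrl replicate 5. Among libraries numbered 1 to 4 they numbered 444 of 18274, and with the block 594 of 17403.

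Against the non-injected group, the same 3 of 9 members were lower at an unadjusted p under 0.05, beside 11.5% of genes, and 0 were higher, beside 9.36% (20.9% of genes in either direction). None of the 9 passed the adjusted threshold in edgeR, beside 0% of genes tested, and the members' median log2 fold change was −0.62 against −0.09 over all genes. The lower calls came to 0 without AAV-miR SOD1 replicate 3 and to 1 without replicate 1 or 4 of AAV-miR SOD1, 6 of AAV-miR ctrl, or 3 or 5 of the non-injected group. They also came to 0 with the libraries whose headers contradict their labels exchanged, and with the replicate block. Over all genes, lower calls went from 2006 of 17403 to 1389 of 17824 without AAV-miR SOD1 replicate 3. With the exchange they numbered 1332 of 17403 and with the block 578 of 17403. This comparison and the previous one share the AAV-miR SOD1 libraries, and their counts are not independent.

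Injection with AAV-miR ctrl was compared with no injection as a measure of what the virus and surgery do without the SOD1 microRNA. Here 0 of 9 members passed an unadjusted p of 0.05 in either direction, beside 3.61% of genes (1.38% higher and 2.24% lower), and 0 passed the adjusted threshold by edgeR, DESeq2 or limma-voom, beside 0% of genes by edgeR. The log2 fold changes of Bcan, Ncan, Tnr, Vcan and Hapln4 were 0.0082, 0.0043, −0.05, −0.19 and −0.24, each smaller than its standard error. Tnc had the largest value apart from Hapln1, 0.66 ± 0.47 (adjusted p = 1.00), and this was 0.16 without AAV-miR ctrl replicate 1 and 1.31 without non-injected replicate 5.

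Against the mean of both control groups, which reuses all of these libraries, the edgeR log2 fold changes were −0.94 ± 0.33 for Hapln4 (adjusted p = 0.128), −0.90 ± 0.35 for Tnr (adjusted p = 0.155) and −0.64 ± 0.25 for Bcan (adjusted p = 0.159). These 3 of 9 were lower at an unadjusted p under 0.05, beside 12.1% of genes, and 0 of 9 passed the adjusted threshold, beside 0% of genes. Without AAV-miR ctrl replicate 1, 1694 of 17217 genes passed it and still 0 of the 9 members, and without AAV-miR SOD1 replicate 3, 121 of 17824 genes and 0 members. Levels without overlap between the groups were seen for 0 of 9 members here, beside 1.82% of genes, for 0 between AAV-miR SOD1 and AAV-miR ctrl, beside 3.73%, and for 0 between AAV-miR ctrl and non-injected, beside 0.816%. Without AAV-miR SOD1 replicate 3, among libraries numbered 1 to 4, or with the replicate block, 0 members were lower at an unadjusted p under 0.05. Over all genes, 1423 of 17824, 1124 of 18274 and 813 of 17403 were lower in these settings, in that order.

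**Figure D3:**
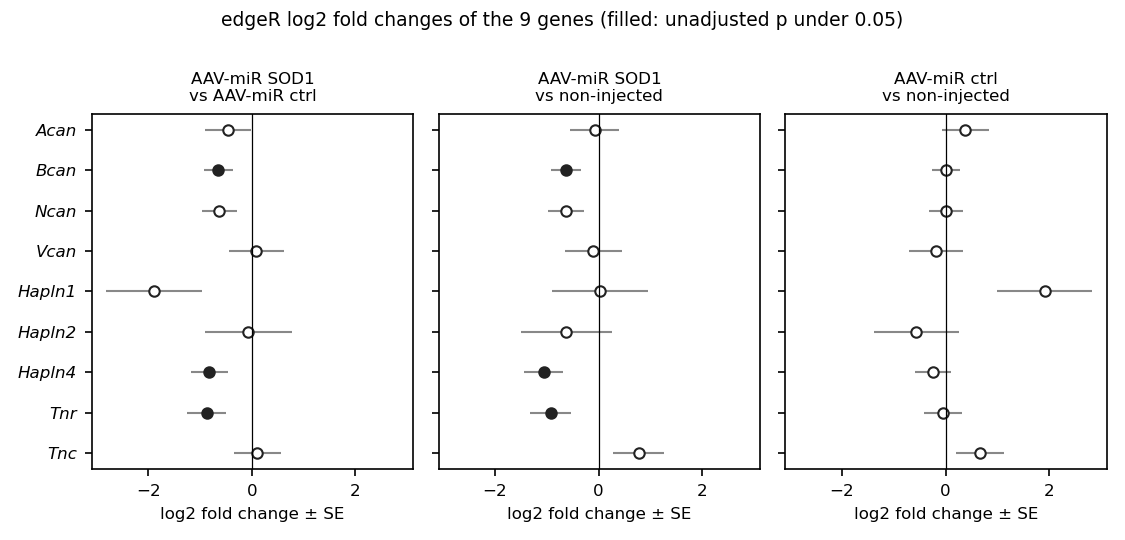
Log2 fold changes of the 9 genes with standard errors in the 3 pairwise comparisons; filled points have an unadjusted p under 0.05. Bcan, Hapln4 and Tnr are filled and left of 0 in both comparisons with AAV-miR SOD1, and no point is filled between AAV-miR ctrl and non-injected.

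Motoneuron markers were lower in the same libraries. All 8 markers (Chat, Slc5a7, Slc18a3, Isl1, Mnx1, Prph, Nefh and Nefm, the genes of acetylcholine synthesis and storage, motoneuron identity and neurofilaments) had lower values at an unadjusted p under 0.05 against both control groups, with a median log2 fold change of −1.05; against AAV-miR ctrl alone 5 of the 8 did. Over all genes the shares lower were 12.1% and 8.54%. With about 500 cells pooled per mouse, less marker RNA per motoneuron and a larger share of RNA from other cells cannot be told apart. A motoneuron score, the mean log2 CPM of the 8 markers, averaged 6.84 ± 0.34 (SD) over the 4 AAV-miR SOD1 libraries, 7.67 ± 0.60 over the 5 AAV-miR ctrl libraries and 8.01 ± 0.55 over the 4 non-injected ones.

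Members differed in how closely they followed this score over the 13 libraries. Permutations ran over all 13 libraries regardless of group, so their p-values take in differences between the groups as well. Of 45 relations computed (9 members with 5 marker scores), Hapln4 with the motoneuron score had the highest r, 0.98 (permutation p = 1e-05, the smallest that the permutations can give; adjusted p = 0.00045), with a rho of 0.95 (permutation p = 1e-05, adjusted p = 0.00045). The Hapln4 value was 0.97 without the 2 libraries farthest from the median score, 0.96 among the 9 libraries numbered 1 to 4 and 0.98 among the 9 controls. Libraries numbered 5 and 6 alone are 4, too few for a value. Ncan had an r of 0.86 (permutation p = 0.00027, adjusted p = 0.00608) and a rho of 0.95 (permutation p = 3e-05, adjusted p = 0.000675), with r = 0.75 without the 2 farthest libraries, 0.90 among libraries numbered 1 to 4 and 0.77 among the 9 controls.

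Bcan followed the score with an r of 0.80 (permutation p = 0.00134, adjusted p = 0.0121) and a rho of 0.88 (permutation p = 0.0002, adjusted p = 0.003), with r = 0.74 without the 2 farthest libraries, 0.69 among libraries numbered 1 to 4 and 0.65 among the 9 controls. Tnr had an r of 0.71 (permutation p = 0.00725, adjusted p = 0.0466) and a rho of 0.64 (permutation p = 0.0215, adjusted p = 0.138). Its r was 0.54 without the 2 farthest libraries, 0.65 among libraries numbered 1 to 4 and 0.50 among the 9 controls, so the Tnr relation rests in part on those libraries. Hapln2 and Acan did not pass the adjustment. Hapln2 had an r of 0.62 (permutation p = 0.0262, adjusted p = 0.147) and a rho of 0.46 (permutation p = 0.116, adjusted p = 0.522). Its r was 0.61 without the 2 farthest libraries, 0.44 among libraries numbered 1 to 4 and 0.74 among the 9 controls. Acan had an r of 0.57 (permutation p = 0.0308, adjusted p = 0.154) and a rho of 0.54 (permutation p = 0.0601, adjusted p = 0.338). No member passed the adjustment with the astrocyte or the oligodendrocyte score.

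With the motoneuron score subtracted from each member's log2 CPM, a quantity chosen after the values had been seen, the differences from both control groups were 0.11 for Hapln4, 0.19 for Tnr, 0.33 for Bcan and 0.41 for Ncan. The two-sided exact permutation p were 0.221, 0.594, 0.190 and 0.0573, and adjusted over the 36 such tests 0.457, 0.793, 0.457 and 0.258. Relative to the motoneuron markers the mean difference of each of these 4 genes was above 0, and 2, 3, 4 and 4 of the 4 AAV-miR SOD1 libraries lay above the control mean. In the same contrast the differences were 0.86 for Acan, 1.55 for Tnc, 1.24 for Vcan, 0.58 for Hapln1 and −0.06 for Hapln2. Their exact permutation p were 0.0266, 0.0336, 0.0979, 0.533 and 0.931 (adjusted 0.201, 0.201, 0.381, 0.747 and 0.963). Against the non-injected group Bcan, Ncan, Acan and Tnc were higher relative to the score, with an exact permutation p of 0.0286 (adjusted 0.201). That is the smallest p that 4 against 4 libraries allow. The subtracted score was itself lower in the AAV-miR SOD1 group, averaging 6.84 against 7.67 in AAV-miR ctrl and 8.01 in non-injected. A gene of unchanged level therefore comes out higher after the subtraction. For Acan against non-injected the value was −0.08 before the subtraction and 1.09 after it. Such differences place members relative to the markers and do not show rises in their own levels. The smallest p that 4 against 9 libraries allow is 0.00140, too large for a single test to pass an adjustment over 36, so the adjusted values do not show whether the groups differed.

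A second pattern was that of the connective tissue scores. Tnc followed the bone and fibroblast score, the mean log2 CPM of 7 markers such as Col1a1, the main collagen of bone, with an r of 0.80 (permutation p = 0.00091, adjusted p = 0.0109) and a rho of 0.81 (permutation p = 0.00119, adjusted p = 0.0134). The Tnc r was 0.66 without the 2 farthest libraries, 0.92 among libraries numbered 1 to 4 and 0.91 without AAV-miR ctrl replicate 5. The bone and fibroblast markers summed to 9398 to 21055 CPM in the AAV-miR SOD1 group, 10375 to 34077 in the AAV-miR ctrl group and 7750 to 27188 in the non-injected group; 0 of the 7 had an unadjusted p under 0.05 between AAV-miR SOD1 and either control group, and their part in the Tnc level was not tested.

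Hapln1 followed the cartilage score with an r of 0.88 (permutation p = 0.00097, adjusted p = 0.0109), and a rho of 0.72 (permutation p = 0.00759, adjusted p = 0.0683). Without AAV-miR ctrl replicate 5 that r was 0.66, and without the 2 farthest libraries 0.52, so it rests on those libraries. Hapln1 with the bone and fibroblast score had an r of 0.66 (permutation p = 0.00552, adjusted p = 0.0414) and a rho of 0.70 (permutation p = 0.00979, adjusted p = 0.0734), and r was 0.72 without the 2 farthest libraries and 0.76 among libraries numbered 1 to 4. Vcan with the cartilage score had an r of 0.13 (permutation p = 0.694, adjusted p = 0.901). That Vcan r was 0.81 without AAV-miR ctrl replicate 5, 0.76 without the 2 farthest libraries and 0.81 among libraries numbered 1 to 4. With the bone and fibroblast score the Vcan r was 0.21 (permutation p = 0.49, adjusted p = 0.901), and 0.87 among libraries numbered 1 to 4.

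**Figure D4:**
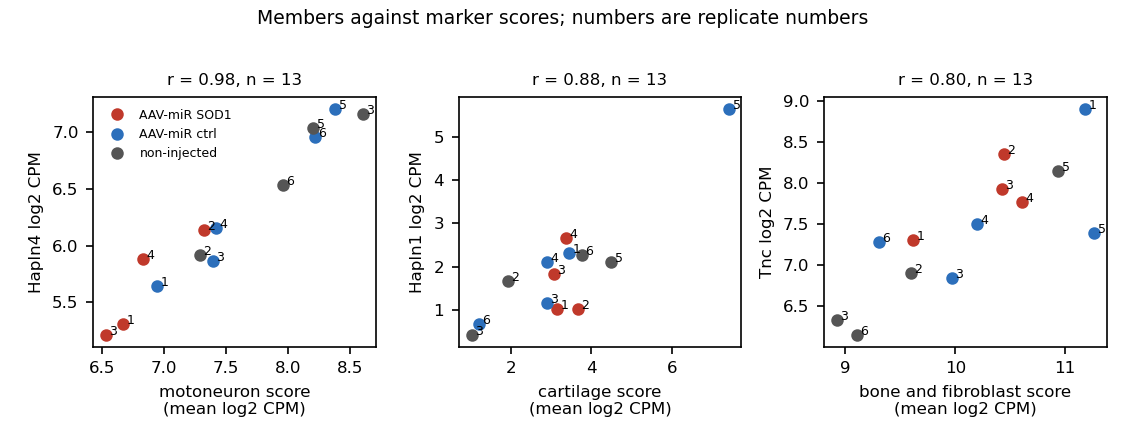
Log2 CPM of Hapln4, Hapln1 and Tnc against the motoneuron, cartilage and bone and fibroblast scores (mean log2 CPM of each marker list), 1 point per library with its replicate number. Hapln4 lies close to a line (r = 0.98), Hapln1 is drawn out by AAV-miR ctrl replicate 5 (r = 0.88), and Tnc follows more loosely (r = 0.80).

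In vertebrate genomes each lectican gene has a Hapln gene as its neighbour, and the levels of these pairs were compared over the 13 libraries as a description. Ncan and Hapln4, 2.22 kb apart on chromosome 8 and on opposite strands, had an r of 0.84. Members on different chromosomes reached similar values, such as Bcan with Hapln4 (0.81), Ncan (0.80) and Tnr (0.77). Bcan and Hapln2, 21.5 kb apart on chromosome 3 and on the same strand, had an r of 0.83 and a rho of 0.58. Vcan and Hapln1, 43.7 kb apart on chromosome 13, had an r of −0.01, and 0.73 without AAV-miR ctrl replicate 5. Acan and Hapln3, on opposite strands of chromosome 7 with their annotated ends 2 bases apart, had an r of 0.08. Hapln3, a link protein outside the 9 genes, was at 1.78 to 5.63 CPM in the AAV-miR SOD1 group, 5.28 to 8.50 in the AAV-miR ctrl group and 6.71 to 10.2 in the non-injected group, with a log2 fold change of −1.09 ± 0.35 against AAV-miR ctrl (edgeR, adjusted p = 0.268).

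The genes most like each member in log2 CPM over the 13 libraries were also taken, 3 per member and as a description. For Hapln4 these were Map6 (r = 0.99), a microtubule-stabilising protein, Slc18a3 (r = 0.99), the vesicular acetylcholine transporter and one of the 8 motoneuron markers, and Haghl (r = 0.99). For Hapln1 they were Matn3 (r = 0.86), Crispld1 (r = 0.86) and Cytl1 (r = 0.86), and for Tnc they were Enpp6 (r = 0.93), Phex (r = 0.93), an endopeptidase of bone cells, and Kdelr2 (r = 0.92). For Bcan they were Usp22 (r = 0.95), Ncam2 (r = 0.93) and Dbx2 (r = 0.93), for Ncan Ube3c (r = 0.98), Plcb1 (r = 0.94) and 9330182L06Rik (r = 0.94), and for Tnr Pcdha2 (r = 0.92), Psat1 (r = 0.91) and Cct5 (r = 0.90). Hapln2 was most like Tmem127 (r = 0.95), Ttc13 (r = 0.94) and Wdr41 (r = 0.93), while the highest values for Acan (Hmga1, r = 0.84) and Vcan (Soga1, r = 0.84) were lower.

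Genes that build, cut and bind the net were counted by list against both control groups, and no gene of these lists had an adjusted p under 0.05 in edgeR. Of 9 genes of hyaluronan synthesis and turnover, 1 was higher at an unadjusted p under 0.05, beside 10.2% of all genes, and 0 were lower: Hmmr, a hyaluronan-binding protein of dividing cells, was at 27.96 to 75.0 CPM in the AAV-miR SOD1 group and 9.57 to 40.9 CPM in controls (log2 fold change 1.22 ± 0.36, adjusted p = 0.102). Of 20 genes of chondroitin sulfate chain synthesis and sulfation, 3 were higher, beside 10.2% of all genes, and 1 was lower, beside 12.1%. Xylt1, which starts the chain on the core protein, had a log2 fold change of 1.02 ± 0.33, and Chsy1, which extends it, 0.68 ± 0.29. B3gat3, which completes the linker between protein and chain, had −0.55 ± 0.21.

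The counts that follow stand beside 12.1% of all genes lower and 10.2% higher. Of 14 matrix proteases and inhibitors, 1 was lower, Adamts8 (−1.25 ± 0.56), which is below the share over all genes, and 0 were higher. Of 15 tested receptors and net-bound proteins, 4 were lower and 1 was higher. The lower ones with the smallest p were Cntn1, an adhesion protein of axons and a partner of tenascin-R (−0.85 ± 0.21), Crtac1, a secreted protein also called LOTUS that blocks the Nogo receptor (−1.79 ± 0.49), and Ptn, pleiotrophin, a growth factor that binds chondroitin sulfate (−0.85 ± 0.24). Of 14 other brain matrix proteins, 6 were lower and 0 were higher, with the smallest p for Cspg5 (−0.90 ± 0.23), a neuronal chondroitin sulfate proteoglycan, Sparcl1 (−0.88 ± 0.23), hevin, and Spock3 (−0.88 ± 0.25). The median log2 fold changes of the 5 lists, in the order given, were −0.28, −0.01, −0.17, −0.20 and −0.45, against −0.06 over all genes.

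Markers of other cells were counted in the same contrast, in which 10.2% of all genes were higher and 12.1% lower. All 6 erythroid markers were higher at an unadjusted p under 0.05 in the AAV-miR SOD1 group against both control groups, with 18941 to 43019 CPM in sum against 3108 to 25059 in the AAV-miR ctrl group and 4976 to 18260 in the non-injected group. Of 7 microglia markers 3 were higher, of 8 astrocyte markers 1 was lower (Aldoc), about the share over all genes, and of 8 oligodendrocyte markers 0 passed. Astrocyte markers summed to 463 to 586 CPM in the AAV-miR SOD1 group, 575 to 1022 in the AAV-miR ctrl group and 544 to 794 in the non-injected group. The part of these cells in the levels of the net genes was not tested.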

How the data were processed

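RNA was amplified with a low-input full-length kit and sequenced, per the labels. The files were deposited as unnormalized counts of reads by gene. The submitters' processing notes name cutadapt 1.8, STAR 2.5.2b, HTSeq 0.6.1 and GRCm38, and the annotation release and strand setting are not given in the sources used here. The 5 summary rows were left out of library sizes. Identifiers were matched to GENCODE M21 names (48349 matched, 99.986% of counts). In R 4.3.3 with edgeR 4.0.16, genes were kept by filterByExpr (minimum count 10, minimum total 15), which left 17403 genes and all 9 members, scaled by TMM and tested by the quasi-likelihood F test on all 13 libraries with 3 groups (10 residual degrees of freedom), with Benjamini-Hochberg adjustment over all genes and a threshold of 0.05. The standard error is the log2 fold change divided by the root of F. CPM use TMM-scaled library sizes, and log2 CPM a prior count of 2. DESeq2 1.42.0 and limma 3.58.1 were alternatives, with other scalings, no filter, a block, exchanged headers, libraries numbered 1 to 4 and libraries left out in turn. Correlations used 100000 permutations.

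The members, lists and tests were chosen with earlier results of these data known. All members are named; from each list, up to 3 genes per comparison with the smallest unadjusted p under 0.05; and for each member the 3 genes most correlated with it. Nothing in the labels beyond 1 pool per mouse describes the replicates, so p-values measure the spread between mice.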

Additional observations from a re-analysis of the deposited data

Results flagged for a closer look

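One value stood apart from its group by the gap between it and its nearest neighbour, out of 42 groups of values examined, where chance gives about 2.1 (1 in 20). Ncan in AAV-miR SOD1 replicate 2 was at 2.6 log2 CPM, and the nearest other library of that group at 2.02. The same library had the highest motoneuron score of its group, 7.32 against 6.53 to 6.83 in the other 3, and the highest Bcan, Hapln4 and Acan. The part of the motoneuron markers in that Ncan value was not tested.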

How the results depend on the processing

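Over the alternatives, 0 of 9 members had an adjusted p under 0.05 in each comparison, by edgeR, DESeq2 or limma-voom. Over all genes edgeR as reported made 0 such calls, but against both control groups it made 1694 without AAV-miR ctrl replicate 1, 121 without AAV-miR SOD1 replicate 3, 1 without AAV-miR SOD1 replicate 4 and 1 with no filter. DESeq2 made 173 calls for AAV-miR SOD1 set against the AAV-miR ctrl group, 996 against the non-injected group and 1480 against both, and 2 in the injection comparison, which sets AAV-miR ctrl against the non-injected group. Limma-voom made 1461 against both and 0 in the other comparisons. DESeq2 gave no p for Hapln1. Of 783 log2 fold changes of members recomputed under alternatives, 85 changed sign, none of them one with an adjusted p under 0.05 to begin with, and none passed it. Bcan, Ncan, Hapln4 and Tnr kept their sign in each comparison with AAV-miR SOD1. For these genes, values against AAV-miR ctrl or non-injected that leaving out 1 library moved by over 1.5 times are given beside each gene. Against both, Bcan was −0.41 without AAV-miR SOD1 replicate 3. With 1 library left out, Hapln2 against non-injected ranged from −1.25 to −0.17, and Tnc against both from 0.24 to 0.77.

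Replicate numbers were shared between groups, and whether they pair the libraries is not known. The 8 same-numbered pairs had correlations of −0.19 to 0.24, within the −0.38 to 0.34 of pairs with different numbers. Such correlations cannot decide whether the numbers pair libraries. With the replicate block the lower calls at an unadjusted p under 0.05 came to 0 in each comparison with AAV-miR SOD1. Of all 17403 genes, 594 were then lower against AAV-miR ctrl, 578 against non-injected and 813 against both. Without the block 1486, 2006 and 2101 were. Values that changed sign with the block were Acan 0.12 (against AAV-miR ctrl), 0.36 (against non-injected) and 0.24 (against both), Hapln1 0.13 and Vcan 0.11 (against both), and Bcan −0.0545 (injection comparison).

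Among libraries numbered 1 to 4, lower calls came to 0 against AAV-miR ctrl, 1 against non-injected and 0 against both. Of all 18274 genes, 444, 1396 and 1124 were lower in these comparisons, in that order. Higher calls came to 2 against non-injected (Tnc and Vcan), beside 1467 of 18274 genes. They came to 2 in the injection comparison (the same pair of genes), beside 682 of 18274. The non-injected group of this subset was replicates 2 and 3 alone. Signs changed there for Hapln2 0.65, Vcan −0.36, Tnc −0.13 and Acan 0.44 against AAV-miR ctrl, for Hapln2 0.083, Vcan 1.18 and Acan 0.0518 against non-injected, for Ncan −0.38, Bcan −0.088, Vcan 1.55 and Acan −0.39 in the injection comparison, and for Hapln2 0.37, Hapln1 0.25, Vcan 0.41 and Acan 0.25 against both.

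With the 2 libraries of contradicting headers exchanged, lower calls against non-injected came to 0 and higher calls in the injection comparison to 1. Of all 17403 genes, 1332 and 253 were called in these 2 counts. Signs changed for Hapln1 −0.062 and Acan 0.19 against non-injected and for Hapln2 0.12, Hapln4 0.32 and Tnr 0.74 in the injection comparison. Scaling moved Vcan to 0.0037 against non-injected (upper quartile) and, against both, to 0.051 (upper quartile), 0.035 (RLE) and 0.035 (DESeq2). Upper quartile scaling and no filter each gave 1 higher call, Hapln1, in the injection comparison, and no filter moved Ncan to −0.00453 and Bcan to −0.00236 there. Limma-voom gave 1 higher call against non-injected (Tnc) and moved Hapln1 to −0.17 there, Bcan to −0.058 and Acan to −0.028 in the injection comparison, and Vcan to 0.14 against both. The causes were not tested.

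Leaving out 1 library at a time gave 0 to 4 lower calls against AAV-miR ctrl and against both and 0 to 3 against non-injected. Over all genes, lower calls ranged from 784 of 17857 to 1981 of 17217 against AAV-miR ctrl. They ranged from 1382 of 17871 to 2113 of 17217 against non-injected and from 1306 of 17857 to 2430 of 17217 against both. Higher calls of members came to 0 to 1 against non-injected, against both and in the injection comparison. Over all genes, higher calls ranged from 983 of 17857 to 2188 of 17798 against non-injected. The ranges were 895 of 17857 to 2393 of 17798 against both and 149 of 17217 to 455 of 17798 in the injection comparison. The ranges of values that changed sign were, against AAV-miR ctrl, Hapln2 −0.69 to 0.38, Hapln1 −2.35 to 0.097, Vcan −0.11 to 0.56, Tnc −0.11 to 0.61 and Acan −0.63 to 0.23. Against non-injected they were Hapln1 −0.43 to 0.24, Vcan −0.36 to 0.52 and Acan −0.24 to 0.068. In the injection comparison they were Ncan −0.15 to 0.33, Bcan −0.13 to 0.17, Tnr −0.21 to 0.30, Hapln1 −0.063 to 2.21, Vcan −0.66 to 0.44 and Acan −0.31 to 0.59. Against both they were Hapln2 −0.97 to 0.11, Hapln1 −1.39 to 0.065, Vcan −0.17 to 0.31 and Acan −0.43 to 0.076. The lowest counts of any member were those of Hapln2, 4 and 6, in AAV-miR SOD1 replicates 4 and 3.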
